A study of Mus musculus with 18 samples.

Results

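The palindrome AGCT is the hotspot sequence of activation-induced cytidine deaminase (AID) that reads the same on both strands, so each copy offers AID a cytosine on either strand. Its members here were every C with A and G before it and T after it, and every G with A before it and C and T after it, in the reporter mOrangeSTOP. Positions 45 to 723 of the reporter held 7 such motifs with 14 C or G bases. A position was kept where all 18 libraries had at least 1000 base calls over a Phred quality of 20, which left 13 of the 14 bases (7 G and 6 C) out of 426 C:G positions and 674 positions in all. The base dropped was the C at 700, so 6 motifs kept both bases and the motif 699/700 kept its G alone. The reporter is a transgene, so positions count from the first base of its coding sequence and no genome coordinates apply.

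AID converts cytosine in DNA to uracil and prefers a C after A or T and a purine (WRC, where W is A or T and R is a purine), above all when a pyrimidine follows (WRCY). A uracil that is copied is read as T, which leaves a C-to-T transition, seen as G-to-A when the uracil lay on the other strand. The uracil DNA glycosylase UNG removes the uracil, and synthesis past the abasic site can insert other bases, which gives transversions as well. Ugi is a phage protein that binds and blocks UNG.

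NIH-3T3, an established mouse fibroblast line with its own UNG, was the source of the genomic DNA. All cells carried mOrangeSTOP and 1 deaminase vector, AID-ER or AID-E58Q-ER. AID-ER is AID joined to an estrogen receptor domain and AID-E58Q-ER is its catalytically inactive form, called AID and AID-E58Q from here on. A further retroviral vector was empty (Control), carried Ugi or carried UNG, which made 6 groups of 3 libraries, numbered experiment 1 to 3 in the titles. Transduced cells were drug-selected as pools and treated for 11 days with OHT at 1 µM, which binds the fused receptor domain. Libraries came from 25 PCR cycles on the reporter, shearing, and 10 further cycles. Whether each experiment began from its own transduction is not in the labels, and the p-values therefore cover no more than the variation among the libraries, which may be technical. Amounts of the AID, Ugi and UNG proteins were not analysed here.

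The motifs follow with 8 bases on each side, read 5′ to 3′ along the coding strand from the deposited reference column, because the results turn on the G and C inside them and on the bases next to them. Capitals mark the AGCT, and each name gives the positions of its G and its C.
Site 150/151: gaccgctaAGCTgaaggtga
Site 231/232: caaggcctAGCTgaagcacc
Site 267/268: ctacttcaAGCTgtccttcc
Site 384/385: caaggtgaAGCTgcgcggca
Site 513/514: gaggctgaAGCTgaaggacg
Site 579/580: gcccgtgcAGCTgcccggcg
Site 699/700: catggacgAGCTgtacaagt
All 7 motifs are followed by G. The base before is A at 4 of them (150/151, 267/268, 384/385 and 513/514), T at 231/232, C at 579/580 and G at 699/700.

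All 7 motifs also lie in one reading frame: the G is the last base of a codon and the C is the first base of a CTG leucine codon. The codon ending in the G is AAG, lysine, at the 4 motifs preceded by A, CAG, glutamine, at 579, and GAG, glutamate, at 699. At 231 it is TAG, the stop codon that interrupts the fluorescent protein. In this frame all 14 transitions are silent and all 28 transversions change the amino acid. Over the 419 C:G positions whose whole codon lay in the window, 50.8% of transitions and 24.8% of transversions are silent. At the stop codon G231A leaves the stop codon TAA, whereas G231C and G231T give tyrosine.

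Libraries held 24915866 to 95011754 passing calls, with a median of 37304 to 141205 calls a position. Coverage of the members fell along the reporter, from a lowest library of 61045 calls at 150 to 24140 at 580. At 699 it was 1046 to 8269. Wilson 95% intervals on a member's level in 1 library were at most 0.320 percentage points wide at the other 12 members and at most 1.30 points wide at 699. These intervals cover counting error only, since PCR reads carry no molecular identifiers. Among the AID libraries experiment 3 was highest for transitions at 13 of 13 members in each arm, by a median of 2.37-fold over the mean of the other two in Control, 4.26-fold in Ugi and 3.09-fold in UNG. Experiment 3 was also highest for transitions in AID-E58Q, at 12 of 13 members in Control, 11 in Ugi and 12 in UNG, though at levels far below. Without experiment 3, members called with AID numbered 7 in place of 12 for transversions in Control, 10 in place of 0 for transitions in UNG, and 2 in place of 11 for lower transversions in Ugi than in Control.

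With AID, the AGCT bases were among the most mutated C:G positions of the reporter in the Control arm, with a median transition level of 0.655% of base calls and a median transversion level of 0.432%. The median over all 426 C:G positions was 0.0341% for transitions and 0.0255% for transversions. In AID-E58Q libraries the members had a median of 0.0311% for transitions, against 0.0206% for all C:G positions. By mean level, 10 of the 13 highest-ranked C:G positions for transitions in Control were members, and so were 11 of the 13 highest for transversions. Positions 267, 513 and 514 ranked lowest among the members for transitions, at 40, 30 and 16. The 23 WRCY positions outside AGCT had median levels of 0.160% for transitions and 0.0906% for transversions, and the 30 WRC positions without a following pyrimidine had 0.134% and 0.0460%. These ranks and medians are descriptions, with no test of the motif against other sequences.

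**Figure D1:**
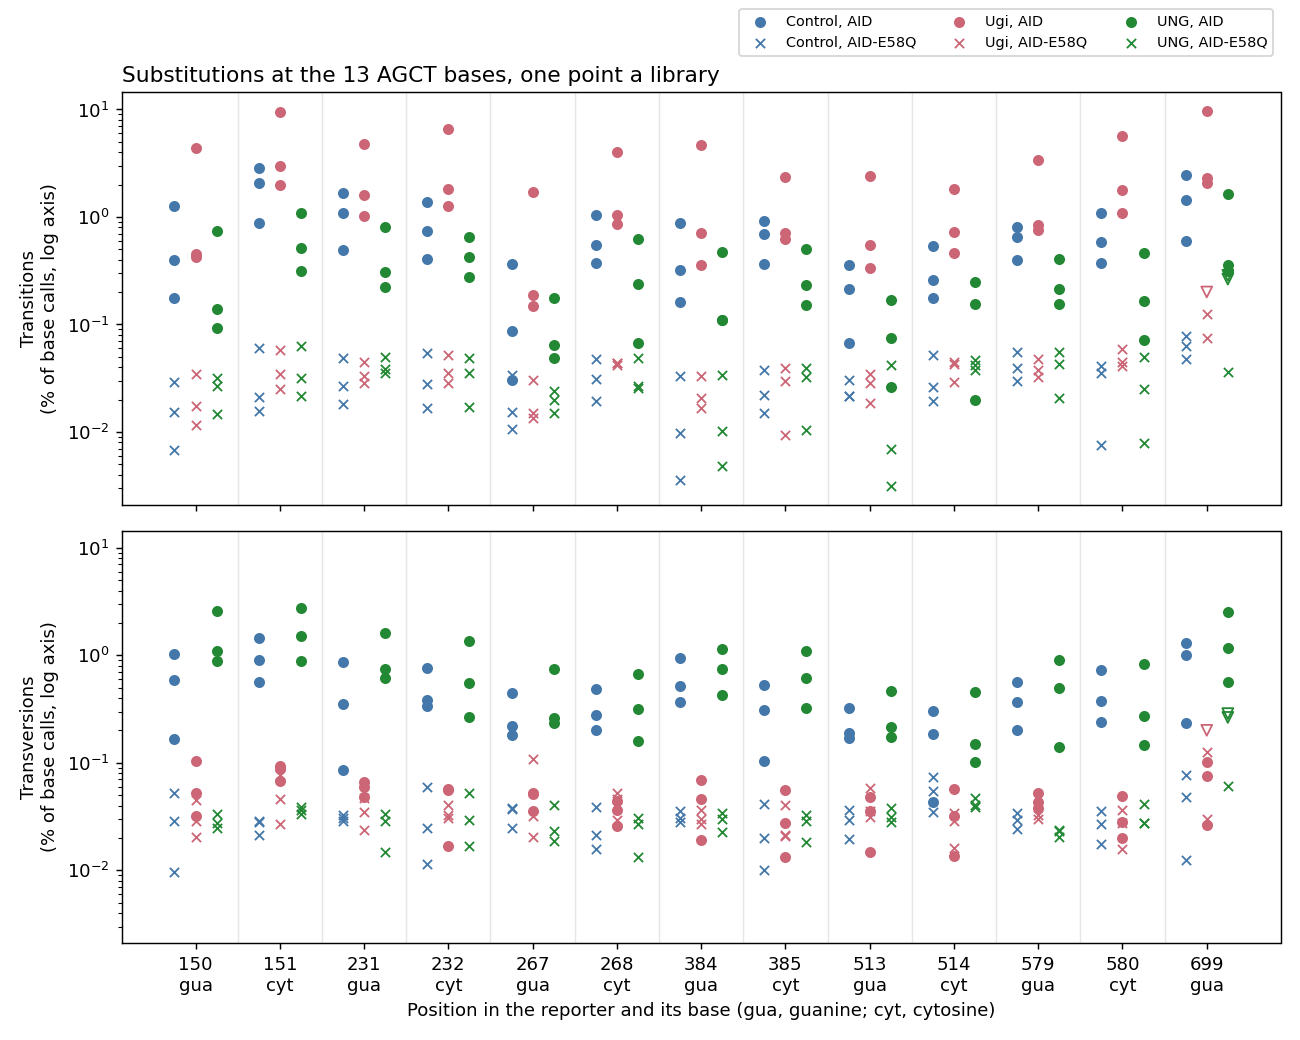
Level of transitions (top) and transversions (bottom) at each of the 13 bases, as percent of base calls on a log axis, 1 point for each of the 18 libraries. Circles are AID, crosses AID-E58Q, and open triangles mark the limit that a count of 0 allows at position 699. Ugi AID libraries have the highest mean transition level at each base and, for transversions, lie near the AID-E58Q libraries, with all 3 above them at G231.

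With the empty vector, transitions rose with AID at 11 of 13 members and transversions rose at 12 of 13. At C151, the base with the highest level, transitions were 2.05%, 0.885% and 2.86% in experiments 1, 2 and 3 with AID, against 0.0212%, 0.0157% and 0.0602% with AID-E58Q. All AID libraries lay above all AID-E58Q libraries there, and the fitted difference was 5.88 on the log2 scale (SE 0.97, adjusted p = 0.00247, edgeR quasi-likelihood test with Benjamini-Hochberg adjustment over all 674 positions). Its transversions were 0.901%, 0.562% and 1.43% against 0.0212%, 0.0285% and 0.0280%, a log2 difference of 5.22 (SE 0.66, adjusted p = 1.96e-04). At G231, in the stop codon, transitions were 1.08%, 0.496% and 1.66% with AID and 0.0181%, 0.0267% and 0.0484% with AID-E58Q, again without overlap. Transversions of G231, the changes that replace the stop codon by tyrosine, were 0.352%, 0.0848% and 0.858% with AID, all above the 0.0288% to 0.0324% of AID-E58Q. Their log2 difference was 3.82 (SE 0.77, adjusted p = 0.0084).

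The background for these counts was low: 2.52% of the 674 positions were called higher for transitions and 3.41% for transversions. Log2 differences of the members had a median of 4.57 for transitions and 3.82 for transversions, against 0.27 and 0.24 over all positions. The members not called for transitions were G267 (log2 3.00, SE 0.99, adjusted p = 0.155) and G513 (log2 3.10, SE 0.95, adjusted p = 0.0944), and for transversions C514 (log2 1.69, SE 0.77, adjusted p = 0.429). AID was the higher library in 39 of 39 same-experiment comparisons for either kind. The count for transitions was 0 without the Control AID-E58Q library of experiment 1, 2 without that of experiment 2 and 7 without the Control AID library of experiment 3. For transversions it was 2 and 3 without the Control AID-E58Q libraries of experiments 2 and 3, and 0 when the compared groups were fitted alone. Without all libraries of experiment 1 no member was called for either kind, and without those of experiment 2 none for transitions.

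With Ugi, the AGCT bases carried mostly transitions. AID raised transitions at 13 of 13 members, where 22.1% of all positions were called, with a median log2 difference of 5.87 against 0.68 over all positions. This was not particular to AGCT. All 23 WRCY positions outside it were called too (median log2 5.19), as were 24 of the 30 WRC positions without a following pyrimidine (median log2 3.22). At C151 transitions reached 2.95%, 1.97% and 9.52%, against 0.0345%, 0.0250% and 0.0578% with AID-E58Q, a log2 difference of 6.93 (SE 1.02, adjusted p = 2.03e-04). G699 was as high, at 2.31%, 2.06% and 9.65%, against 0%, 0.126% and 0.0746% in AID-E58Q libraries of low coverage. In 3 AID-E58Q libraries (1 of Ugi, 2 of UNG) G699 had no substitution at all, and counts of 0 there allow up to 0.201% to 0.287%. Without all libraries of experiment 1 the count of members called was 0.

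Transversions in the same Ugi libraries were near the inactive enzyme. At C151 they were 0.0875%, 0.0927% and 0.0677% with AID against 0.0464%, 0.0765% and 0.0271% with AID-E58Q, and the groups overlapped. None of 13 members was called with edgeR (0% of all positions, 0 members at an unadjusted p under 0.05, 0 with DESeq2). Their log2 differences had a median of 0.37, against 0.02 over all positions. AID was the higher library in 27 of 39 same-experiment comparisons, and at 1 of 13 members all AID libraries lay above all AID-E58Q libraries, as at 2.67% of all positions.

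Against Control, Ugi lowered transversions of AID libraries at 11 of 13 members, with 2.52% of all positions called lower. The median log2 difference was -3.24, against -0.12 over all positions. At G384 the Control AID libraries had 0.513%, 0.364% and 0.945% and the Ugi AID libraries 0.0457%, 0.0191% and 0.0690%, without overlap (log2 -3.76, SE 0.67, adjusted p = 0.00826). At 12 of 13 members every Ugi library lay below every Control library, as at 8.31% of all positions. The members not called were G267 (log2 -2.61, SE 0.74, adjusted p = 0.084) and C514 (log2 -2.37, SE 0.79, adjusted p = 0.192). The count was 3 and 2 without the Control AID library of experiment 1 or 3, and 0, 0 and 1 without the Ugi AID library of experiment 1, 2 or 3. Without all libraries of experiment 1, 2 or 3 it was 0, 1 and 2. It was 0 when the compared groups were fitted alone, and 13 with experiment as a block.

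For transitions, Ugi libraries were higher than Control libraries of the same experiment at 13 of 13 members in all 3 experiments. No member was called by edgeR without the experiment as a block (0% of all positions). At an unadjusted p under 0.05 there were 7 members, and DESeq2 called 3, both given without a share of all positions. Median log2 difference was 1.64, against 0.45 over all positions and 2.41 at the 23 WRCY positions outside AGCT. With experiment as a block 9 members were called higher, and so were 16.6% of all positions. Of these, C232 had 0.748%, 0.404% and 1.36% in Control and 1.83%, 1.26% and 6.56% in Ugi (blocked log2 1.78, SE 0.42, adjusted p = 0.00493). The libraries of that base overlap between arms, and the Ugi library is higher within each experiment.

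Whether the effect of AID on the AGCT bases itself differed between Ugi and Control was tested by an interaction. For transversions it was smaller in Ugi at C151 alone (log2 -4.49, SE 0.81, adjusted p = 0.022), which was also the 1 position called in the reporter (0.148%). A further 11 members had an unadjusted p under 0.05, and the median log2 interaction was -3.47. The blocked fit called 8 members, and 2.37% of all positions. DESeq2 called 11 members. No share of all positions is given for the DESeq2 count or the unadjusted one. The call at C151 was lost without any 1 of the Control AID libraries of experiments 1 and 3, the 3 Ugi AID libraries, the 3 Control AID-E58Q libraries or, with Ugi and AID-E58Q, experiments 1 and 2, each of which left 0 members called. For transitions the interaction was called at 0 of 13 members with edgeR (0% of all positions, 0 at an unadjusted p under 0.05, 0 with DESeq2).

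With added UNG the same bases carried more transversions than transitions by their mean shares. AID raised transversions at 12 of 13 members, where 3.12% of all positions were called, with a median log2 difference of 4.48 against 0.31 over all positions. At G150 transversions were 1.09%, 0.893% and 2.56% with AID and 0.0336%, 0.0246% and 0.0277% with AID-E58Q (log2 5.72, SE 0.88, adjusted p = 9.76e-04). Those of G231 in the stop codon were 0.742%, 0.612% and 1.62% against 0.0287%, 0.0147% and 0.0336% (log2 5.25, SE 0.83, adjusted p = 9.76e-04). At 13 of 13 members all AID libraries lay above all AID-E58Q libraries, as at 8.75% of all positions. The member not called was again C514 (log2 2.47, SE 0.79, adjusted p = 0.147). Without all libraries of experiment 1 the count was 0.

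Transitions with added UNG were lower, at 0.313%, 0.516% and 1.08% for C151 with AID, against 0.0319%, 0.0218% and 0.0636% with AID-E58Q. AID was the higher library in 38 of 39 same-experiment comparisons at the members. No member passed the edgeR test (0% of all positions), and the smallest adjusted p was 0.0592, at C151, G231, C232 and G699. At an unadjusted p under 0.05 there were 13 members, and DESeq2 called 11, both given without a share of all positions. Blocked by experiment, 12 of 13 were called, and 4.15% of all positions. The member left out was C514, where the AID libraries had 0.154%, 0.0197% and 0.249% and that of experiment 2 lay below all 3 AID-E58Q libraries (blocked log2 1.40, SE 0.56, adjusted p = 0.277).

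Against Control, no member passed the test of either kind with added UNG in the fit without a block. For transitions 0 of 13 were called (0% of all positions, 0 at an unadjusted p under 0.05, 0 with DESeq2), with a median log2 difference of -1.15 against -0.08 over all positions. At 11 of 13 members the UNG library was lower than the Control library in all 3 experiments. With experiment as a block 1 member was called lower, C151 (log2 -1.60, SE 0.38, adjusted p = 0.0467), as were 0.742% of all positions. For transversions 0 of 13 were called (0% of all positions, 0 at an unadjusted p under 0.05, 0 with DESeq2), with a median log2 difference of 0.55 against 0.19. The UNG library was the higher one in all 3 experiments at 7 of 13 members and the lower one in all 3 at 0. Interactions of AID with added UNG were called at 0 of 13 members for transitions and at 0 of 13 for transversions with edgeR (0% of all positions, 0 members at an unadjusted p under 0.05 and 0 with DESeq2 for either kind).

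Ugi and UNG libraries, the arms with uracil removal blocked and added, differed in both kinds. Transitions were higher with Ugi at 9 of 13 members, where 13.9% of all positions were called, with a median log2 difference of 2.82 against 0.38. Of the 23 WRCY positions outside AGCT, 17 were called higher, with a median of 3.55. Transversions were lower at 12 of 13 members, where 2.97% of all positions were called, with a median of -4.07 against -0.30. At C580 transitions were 1.79%, 1.08% and 5.72% with Ugi and 0.166%, 0.0725% and 0.457% with UNG (log2 3.63, SE 0.90, adjusted p = 0.0122). Its transversions were 0.0284%, 0.0200% and 0.0493% with Ugi and 0.270%, 0.147% and 0.833% with UNG (log2 -3.67, SE 0.77, adjusted p = 0.00913). Neither kind overlapped between the arms at that base. The count for transitions was 0 without the UNG AID library of experiment 1 or 2, 0 without the Ugi AID library of experiment 3 and 0 when the compared groups were fitted alone. Without all libraries of experiment 1 or 2 it was 0 as well. The count for transversions was 3 without the Ugi AID library of experiment 2, 7 when the compared groups were fitted alone and 0 without all libraries of experiment 1.

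The share of transitions among all substitutions of a base gives the mixture within each library. In the AID libraries its mean over experiments ranged over the members from 29.9% to 75.6% in Control (median 63.1%), from 85.1% to 98.6% in Ugi (median 96.1%) and from 14.4% to 42.5% in UNG (median 31.2%). At C151 it was 69.5%, 61.2% and 66.6% in Control, 97.1%, 95.5% and 99.3% in Ugi and 17.2%, 36.8% and 28.1% in UNG. At G231 it was 75.5%, 85.4% and 65.9% in Control, 96.0%, 94.6% and 99.0% in Ugi and 29.3%, 26.8% and 33.4% in UNG. The 3 arms did not overlap at either base. With AID-E58Q the median was 48.4%, 50.7% and 48.0% in the 3 arms, Control, Ugi and UNG.

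**Figure D2:**
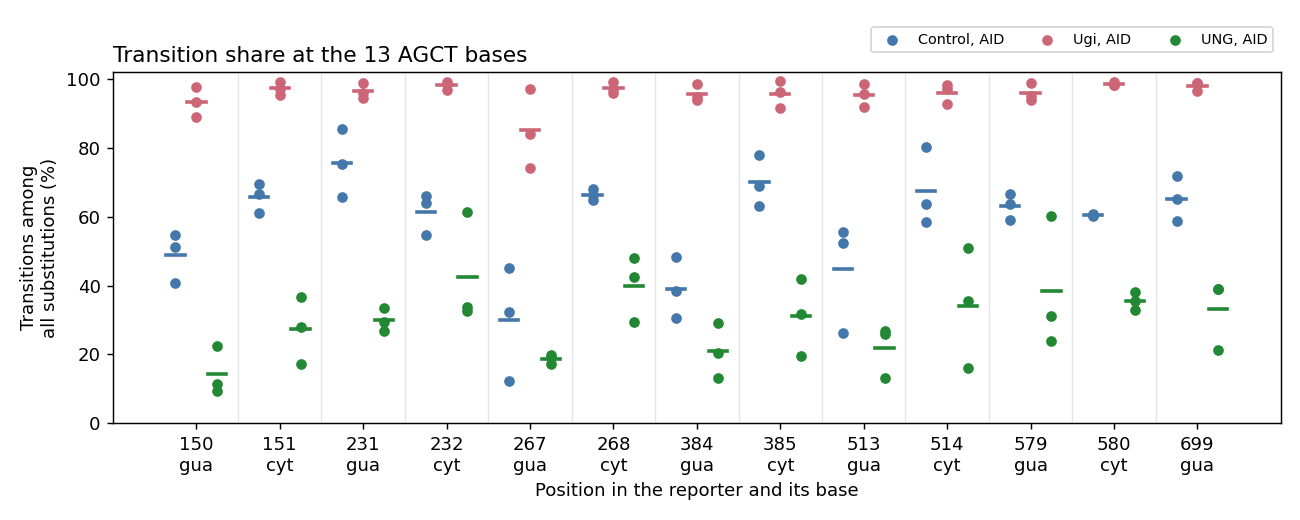
Transitions as percent of all substitutions at each of the 13 bases in the 9 AID libraries, 1 point a library, with a short line at the mean of each arm's 3 libraries. The Ugi arm lies above the Control arm at all 13 bases without overlap, as at 24.4% of the 418 C:G positions with a substitution in each AID library. Ugi means lie at 85.1% to 98.6% and UNG means at 14.4% to 42.5%.

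The ratio of transitions to transversions was tested in 1 fit over all 426 C:G positions, with the 2 kinds compared inside each library. With AID it was higher in Ugi than in Control at 13 of 13 members, with a median log2 difference of 4.45 against 1.05 over all C:G positions, of which 15.3% were called. It was higher in Ugi than in UNG at 13 of 13, with a median of 6.50 against 1.31 and 23.9% called. Within Ugi it was higher with AID than with AID-E58Q at 13 of 13, with a median of 5.21 against 1.23 and 18.5% called. The difference between Ugi and Control was 5.58 at C580 (SE 0.80, adjusted p = 1.51e-05) and 3.37 at G231 (SE 0.77, adjusted p = 0.00201), the largest and the smallest among the members. Over the 20 settings run, 11 to 13 members were called between Ugi and Control and within Ugi, and 12 or 13 between Ugi and UNG.

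Between UNG and Control the transition share was lower with UNG in 37 of 39 same-experiment comparisons at the members. At 9 of 13 members all UNG libraries lay below all Control libraries, as at 8.13% of the 418 C:G positions with a substitution in each AID library. No member passed the edgeR test of the ratio (0% of C:G positions), and the median log2 difference was -1.59, against -0.43 over all C:G positions. At an unadjusted p under 0.05 there were 7 members, and DESeq2 called 6, both given without a share of C:G positions. With experiment as a block 3 members were called lower and they were the 3 positions called in all, 0.704% of C:G positions. These were G150 (log2 -2.61, SE 0.58, adjusted p = 0.0237), C151 (log2 -2.44, SE 0.60, adjusted p = 0.0486) and G231 (log2 -2.95, SE 0.66, adjusted p = 0.0237). At G150 the share was 40.7%, 51.2% and 54.8% in Control and 11.4%, 9.33% and 22.6% in UNG.

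**Figure D3:**
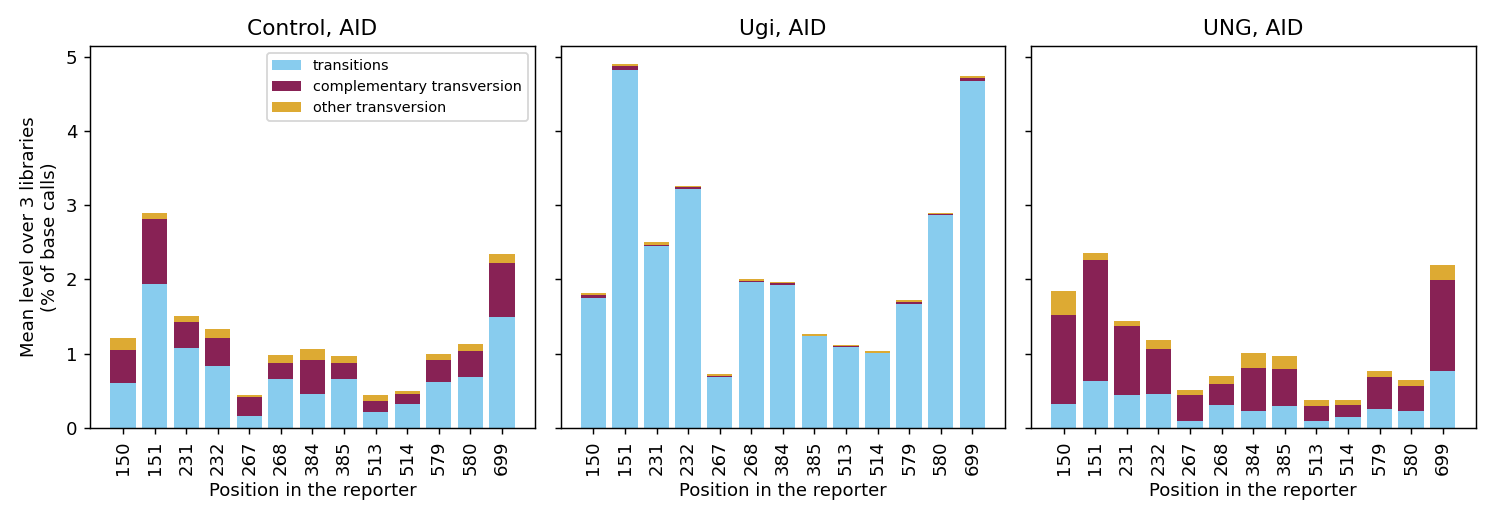
Mean level over 3 AID libraries at each of the 13 bases in percent of base calls, stacked as transitions, the change to the complementary base (C to G or G to C) and the other transversion (C to A or G to T). The Ugi bars are nearly all transitions, and the change to the complementary base makes up most of the transversions in Control and UNG.

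By mean share, most transversions at the AGCT bases of Control and UNG AID libraries were changes to the complementary base, C to G or G to C. The mean share of this change among transversions ranged over the members from 67.7% to 92.0% in Control (median 77.1%) and from 60.3% to 94.8% in UNG (median 78.3%). With AID-E58Q the median was 34.2% in Control and 43.1% in UNG, and in Ugi AID libraries it was 43.3%. At C151 the change to G was 0.833%, 0.533% and 1.27% in Control AID libraries and the change to A was 0.0685%, 0.0287% and 0.160%. With added UNG the change to G there was 1.43%, 0.853% and 2.60% and the change to A 0.0811%, 0.0347% and 0.174%. For the stop codon, G231C was found at 0.248%, 0.0651% and 0.730% in Control and at 0.681%, 0.604% and 1.48% with UNG, while G231T was found at 0.103%, 0.0197% and 0.128% and at 0.0614%, 0.00747% and 0.138%.

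The ratio of the 2 transversions was tested against AID-E58Q over all 426 C:G positions. It was higher with AID at 3 of 13 members in Control, G267 (log2 4.52, SE 1.00, adjusted p = 0.0029), G384 (log2 4.12, SE 1.06, adjusted p = 0.0228) and G513 (log2 3.72, SE 1.01, adjusted p = 0.0248), which were also the 3 positions called higher in all (0.704%). With experiment as a block it was 6 members, again the 6 positions called higher (1.41%), and C151, G231 and C580 were added. In UNG it was higher at 3 of 13, C151 (log2 4.68, SE 1.11), G231 (log2 4.54, SE 1.11) and G267 (log2 3.64, SE 1.03), with 1.17% of C:G positions called. Median log2 differences of the members were 3.29 in Control and 2.58 in UNG, against -0.18 and -0.31 over all C:G positions. In Ugi 0 of 13 were called (0.235% of C:G positions, 2 members at an unadjusted p under 0.05, 0 with DESeq2), and between UNG and Control 0 of 13 (0%, 1 at an unadjusted p under 0.05, 0 with DESeq2).

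These counts rested on single libraries. The count in Control was 1 without the Control AID library of experiment 1 or 2 or the Control AID-E58Q library of experiment 1 or 3, and 0 without that of experiment 2. The count in UNG was 1 without the UNG AID library of experiment 1, 2 or 3 and 0 without the UNG AID-E58Q library of experiment 1, 2 or 3. DESeq2 called 7 members in Control and 9 in UNG, but its share of all C:G positions is not given here.

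After subtraction of the mean AID-E58Q level, the excess of substitutions at a member was 0.389% to 2.84% of calls in Control, 0.656% to 4.81% in Ugi and 0.291% to 2.28% in UNG. Transitions made up a median of 63.4% of this excess in Control, 99.6% in Ugi and 29.7% in UNG. The change to the complementary base made up 30.6%, 0.303% and 57.9% in the same order. In Ugi this share ran from -0.261% to 1.83% over the members and that of transitions from 98.2% to 101%. At some members the mean Ugi transversion level with AID lay below that with AID-E58Q. The sum over the G and the C of site 150/151, without subtraction, was 4.10% ± 2.40 (SD, n = 3) in Control, 6.71% ± 6.39 in Ugi and 4.20% ± 2.58 in UNG. These sums were not tested.

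The G and the C of an AGCT stand for the same motif read on opposite strands. Transitions were called higher at the C than at the G at 2 of 6 motifs. At site 150/151 the C had 5.12, 5.07 and 2.28 times the transition level of the G in Control AID libraries, 6.92, 4.38 and 2.17 times in Ugi and 2.22, 5.62 and 1.45 times in UNG. At site 267/268 it had 6.33, 12.3 and 2.82 times in Control, 5.54, 5.72 and 2.34 times in Ugi and 3.67, 1.35 and 3.54 times in UNG. The C was higher in all 9 AID libraries at both sites. Over the 3 arms the log2 ratio of C to G was 1.79 at 150/151 (SE 0.23, adjusted p = 2.58e-07) and 2.01 at 267/268 (SE 0.24, adjusted p = 7.99e-08), in an edgeR fit over the 59 GC dinucleotides of the reporter with the library as a block. Of these dinucleotides 18.6% were called higher at the C and 24 of 59 were called lower, with a median log2 ratio of -0.18. Calls were thus common in either direction, and the count of 2 motifs is no more than a description.

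The ratio at the other 4 motifs was 0.04 at 231/232 (SE 0.20, adjusted p = 0.851), 0.42 at 384/385 (SE 0.25, adjusted p = 0.143), 0.45 at 513/514 (SE 0.23, adjusted p = 0.0932) and 0.14 at 579/580 (SE 0.23, adjusted p = 0.593) on the log2 scale. The same 2 motifs were called within each arm, with 10.2%, 16.9% and 11.9% of dinucleotides called higher, and 16, 24 and 16 of 59 called lower, in Control, Ugi and UNG. In UNG the count was 1 without the UNG AID library of experiment 1, 2 or 3. The ratio did not pass the test of a difference between arms at any motif with edgeR, with 5.08% of dinucleotides called between Ugi and Control, 0% between UNG and Control and 23.7% between Ugi and UNG (0 motifs at an unadjusted p under 0.05 and 0 with DESeq2 in each).

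**Figure D4:**
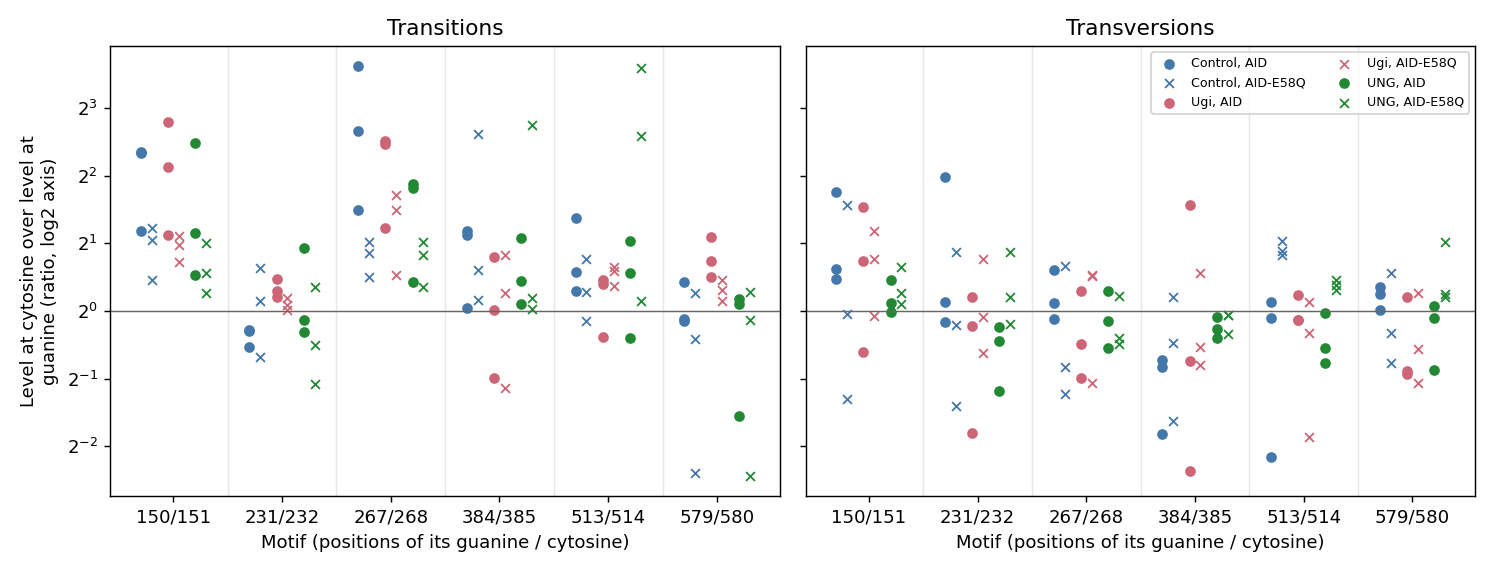
Level at the C divided by level at the G of each of 6 AGCT motifs on a log2 axis, for transitions (left) and transversions (right), 1 point a library. Circles are AID, crosses AID-E58Q, and the line marks equal levels. Transitions lie above the line in all 18 libraries at 150/151 and 267/268. Transversions fall on both sides of it at all 6 motifs, but mostly below it at 384/385. There the C was higher in 1 of 9 AID and 2 of 9 AID-E58Q libraries. At 513/514 it was higher in 2 of 9 AID and 7 of 9 AID-E58Q libraries.

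With the inactive enzyme, at its far lower levels, the transition ratio of C to G was called higher at 3 of 6 motifs, 150/151 (log2 0.82, SE 0.25, adjusted p = 0.00707), 267/268 (log2 0.89, SE 0.27, adjusted p = 0.00488) and 513/514 (log2 0.75, SE 0.28, adjusted p = 0.0239). Of all 59 dinucleotides 30.5% were called higher and 21 were called lower, so calls were common in either direction and the count at the motifs is read as no more than a description. In a test added after these ratios were seen, the ratio was higher with AID than with AID-E58Q at 2 of 6 motifs, 150/151 (log2 0.97, SE 0.34, adjusted p = 0.0349) and 267/268 (log2 1.12, SE 0.36, adjusted p = 0.0235), with 8.47% of dinucleotides called higher and 12 of 59 called lower. Calls again went in either direction, so this count too is no more than a description. The count was 0 without the Ugi AID-E58Q library of experiment 3. It was 1 without any 1 of 10 others: the Control AID library of experiment 1 or 2, the Ugi AID library of experiment 1, the UNG AID library of experiment 2, the Control AID-E58Q library of experiment 1 or 3, the Ugi AID-E58Q library of experiment 1 or 2, or the UNG AID-E58Q library of experiment 1 or 2.

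For transversions no motif passed the test of C against G. Over the 3 AID arms 0 of 6 motifs were called with edgeR (5.08% of dinucleotides, 1 motif at an unadjusted p under 0.05, 0 with DESeq2), and 1 was called without the Ugi AID library of experiment 2. With AID-E58Q 0 of 6 were called (8.47%, 0 at an unadjusted p under 0.05, 0 with DESeq2), and for AID over AID-E58Q 0 of 6 (3.39%, 0 and 0). At 267/268 in Control the C had 0.279%, 0.204% and 0.485% transversions and the G 0.182%, 0.222% and 0.448%. Their transitions were 0.550%, 0.377% and 1.04% at the C and 0.0869%, 0.0307% and 0.368% at the G.

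Whether the strands of a motif differed in their mixture of the 2 kinds was tested in the Control and UNG AID libraries in a fit added after both ratios were seen. The C exceeded the G by more in transitions than in transversions at 267/268 (log2 1.94, SE 0.41, adjusted p = 8.23e-04), 384/385 (log2 1.35, SE 0.39, adjusted p = 0.0142), 150/151 (log2 1.10, SE 0.37, adjusted p = 0.0349) and 513/514 (log2 1.13, SE 0.43, adjusted p = 0.0487), where 13.6% of dinucleotides were called in that direction and 8 of 59 in the other. These 4 are the motifs preceded by A, in which the G closes an AAG codon. The values at 231/232 (log2 -0.12, SE 0.40, adjusted p = 0.874) and 579/580 (log2 -0.13, SE 0.38, adjusted p = 0.874) were near 0. Blocked by experiment, the fit called 2 motifs, 267/268 (adjusted p = 0.0159) and 384/385 (adjusted p = 0.0478), and 6.78% of dinucleotides. The count was 2 without the Control AID library of experiment 2 and 1 when the compared groups were fitted alone. Without all libraries of experiment 1, 2 or 3 it was 1, 2 and 2, and with the block as well it was 2, 1 and 0. In Control AID libraries, the G of these 4 motifs had mean transition shares of 48.9%, 29.9%, 39.1% and 44.8%, in the order of their positions. The C had 65.7%, 66.5%, 70.1% and 67.5%. With AID-E58Q in Control the means were 38.0%, 36.3%, 29.0% and 46.8% at the G and 51.3%, 56.4%, 52.1% and 36.5% at the C. In UNG with AID-E58Q they were 45.0%, 42.7%, 32.2% and 27.3% at the G and 49.5%, 58.8%, 48.0% and 50.1% at the C. The C was thus mostly higher with the inactive enzyme too, and this difference in mixture was not tested against AID-E58Q. The base before the motif was not tested, since its identity goes together with the codon in these 6 motifs.

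The motifs kept much the same order of total substitution (G and C together) in all 9 AID libraries. Site 150/151 was highest in 8 and 231/232 in 1, and these were the highest 2 sites in each library. Site 513/514 was lowest in 8 and 267/268 in 1. The sum at 150/151 was 2.56 to 7.44 times that at 513/514 (median 4.32). Both have A before and G after the AGCT, and so have 267/268 and 384/385. Among these 4 sites, C151 had the highest transition level of the C bases in 9 of 9 AID libraries and the highest transversion level in 9 of 9. The highest of their 4 C bases had up to 26.2 times the transition level of the lowest (median 5.06), and the highest of the 4 G bases had 2.19 to 5.68 times that of the lowest (median 3.75). Coverage differs along the reporter too, and its part in the order was not tested. The partial site 699 ranked 2 among all C:G positions for transitions in each of the 3 AID arms.

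The A and T of the motifs had like levels with AID and with the inactive enzyme. Over the 13 such bases with enough coverage, mean levels of all substitutions were 0.0128% to 0.0761% in Control AID libraries and 0.0232% to 0.0774% with AID-E58Q, with medians of 0.0487% and 0.0508%. In Ugi AID libraries the median was 0.0430% and in UNG AID libraries 0.0457%. No A or T of a motif was called in any of the 8 level comparisons for transitions or the 8 for transversions with edgeR, and 0 of 13 had an unadjusted p under 0.05 in each.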

How the data were processed

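Per the file headers, the deposited values are counts, namely base calls over a Phred quality of 20 and each substitution among them, by position and library. CASAVA 1.7, Novoalign 2.07.04 and SAMtools 0.1.11 appear in the submitters' processing notes, without role or settings. From these counts, levels (percent of passing calls) were computed, and counts were tested with edgeR 4.0.16 (R 4.3.3; glmQLFit, log coverage as offset) over 674 positions, 426 C:G positions or 59 GC dinucleotides, with Benjamini-Hochberg adjustment and a threshold of 0.05. All 18 libraries shared 1 estimate of the spread. Ratios within a library used 2 columns a library (4 for strand against kind) with the library as a block. DESeq2 1.42.0 and limma 3.58.1 were alternatives. Shares of positions or dinucleotides called belong to the edgeR fits at the adjusted threshold. Counts at an unadjusted p and counts from DESeq2 or limma are given without such shares. Scripts were tested on simulated data. The members, lists and tests were chosen with earlier results of these data known. Every AGCT base with enough coverage was named, whatever its values. Titles number the libraries by experiment. Same-numbered libraries were taken as paired in the same-experiment comparisons and in the fits named as blocked by experiment. All other fits had no term for experiment. Deviations of same-numbered libraries from the group means over positions correlated at over 0.1 in 24 of 45 pairs (median r 0.15). Of pairs of different numbers, 18 of 90 did (median r -0.10). All sample columns of the table were assigned to libraries.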

Additional observations from a re-analysis of the deposited data

Results flagged for a closer look

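The effect of AID on transversions at C151 differed between the Ugi and Control arms by -4.49 on the log2 scale (SE 0.81, adjusted p = 0.022, edgeR interaction over 674 positions). Transversions there were 0.901%, 0.562% and 1.43% in Control AID libraries and 0.0875%, 0.0927% and 0.0677% in Ugi AID libraries, with 0.0212% to 0.0765% in the AID-E58Q libraries of both arms. The call was lost without any 1 of most libraries of these groups and without experiment 1, 2 or 3. It was also lost with TMM factors and when the compared groups were fitted alone. Members called numbered 8 with experiment as a block and 11 with DESeq2.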

How the results depend on the processing

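Of the counts of called members under other settings, 796 lay within 1.5 times the reported count, 35 were higher and 98 lower. The 796 include reported counts of 0 that stayed 0. No called value turned its direction. Reported counts stand in brackets. The block on experiment (replicate block) gave 12 for transitions of AID over AID-E58Q in UNG (reported 0), 9 for transitions of Ugi over Control (reported 0), 1 for those of UNG over Control (reported 0), 8 for the transversion interaction with Ugi (reported 1), 3 for the transition to transversion ratio of UNG over Control (reported 0), 6 for the target base in Control (reported 3) and 2 for the strand ratio of the kinds (reported 4). It changed no other count by over 1.5 times. DESeq2 gave 11, 3, 11, 6 and 7 for the first, the second, the interaction, the ratio and the target base in Control, and 9 for the target base in UNG (reported 3). limma gave 6 for the first at pseudocounts of 1 and 0.1 per 10000 calls, 4 and 3 for the interaction, and at 1 gave 6 and 5 for the target base in Control and UNG. TMM factors gave 10 for the first and 0 for the interaction. Fits of the compared groups alone gave 10 for the first, 0 for transitions of Ugi over UNG (reported 9), 0 for transversions in Control (reported 12), 0 for Ugi over Control (reported 11), 7 for Ugi over UNG (reported 12), 0 for the interaction, 0 for the transition strand ratio in UNG (reported 2), 1 for the strand ratio of the kinds and 3 for the ratio of UNG over Control.

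Without experiment 1, 2 or 3 as a whole (in that order, or with its number in brackets), transitions gave 0 and 0 (1, 2) in Control (reported 11), 0 (1) in Ugi (reported 13), 10 (3) in UNG and 0 and 0 (1, 2) for Ugi over UNG. Transversions gave 0 and 7 (1, 3) in Control, 0 (1) in UNG (reported 12), 0, 1 and 2 for Ugi over Control, 0 (1) for Ugi over UNG and 0, 0 and 0 for the interaction. The target base gave 0, 0 and 5 in Control and 0 and 1 (1, 2) in UNG. Strand ratios gave 0, 1 and 1 in UNG, 0, 1 and 1 for AID over AID-E58Q (reported 2) and 1, 2 and 2 for the kinds; the ratio of UNG over Control gave 1 (3). With the replicate block and 1 experiment left out, transitions gave 8, 11 and 10 in UNG and 5 and 5 (1, 2) for Ugi over Control, the interaction 4, 8 and 4, the target base 0, 0 and 5 in Control and 0 and 1 (1, 2) in UNG, the strand ratios 1 (3) in UNG, 0, 1 and 1 for AID over AID-E58Q and 2, 1 and 0 for the kinds, and the ratio of UNG over Control 1 (3). Causes were not tested, and these settings have fewer libraries.

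Leaving out 1 library gave 0 to 11 for transitions in Control, 0 to 12 for Ugi over UNG, 2 to 12 for transversions in Control, 0 to 11 for Ugi over Control, 3 to 13 for Ugi over UNG, 0 to 1 for the interaction, 0 to 4 and 0 to 1 for the target base in Control and UNG, 1 to 1 for the strand ratio in UNG, 0 to 2 for AID over AID-E58Q, 2 to 4 for the kinds and 0 to 1 for transversion strands over the arms (reported 0). Subtracting the AID-E58Q mean moved a level by over 1 SD at 12 of 13 members for Ugi transversions and at 0 in the other 5 sets. Low coverage limits position 699.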
